A study of Drosophila melanogaster with 2 samples.

Results

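A total of 885 binding summits of the CG10366-eGFP fusion lay directly upstream of protein-coding genes that have no head-to-head partner. They belong to 803 genes and make up 885 of the 5153 peaks that passed the authors' threshold in the list made from both libraries. Each was chosen by position alone: the summit was within 500 bp of its nearest annotated start, it lay upstream of that start, and no protein-coding gene on the other strand started within 1000 bp upstream of the gene. Below, "partnerless" stands for such genes, which lack a partner at all of their annotated starts. Upstream summits of genes with such a partner at any annotated start are called those in head-to-head promoters. Some of these stand next to a start that itself has no partner.

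The 2 libraries are biological replicates of chromatin immunoprecipitation with sequencing (ChIP-seq) from whole Drosophila melanogaster embryos aged 0 to 24 h. All embryos came from the transgenic strain CG10366-GFP, whose insertion targets CG10366 and which expresses the CG10366-eGFP fusion, and the fusion was precipitated with an antibody against GFP after sonication to fragments of 200 to 800 bp. There is 1 group, without a wild type or untagged group, so every comparison here is between places in the genome. A pool of all stages and tissues gives 1 value per peak, and the cells that a peak comes from cannot be told apart.

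In the compact fly genome many neighbouring genes are divergently arranged and start close together, so that a summit between them cannot be given to either gene. A gene without such a neighbour has an upstream region of its own, often bounded by the end of the gene before it. Fly core promoters carry short elements that are known to differ between gene classes: the DNA replication-related element (DRE) and Ohler motifs 1, 6 and 7 are typical of housekeeping genes, while the TATA box and GAGA element are typical of regulated ones. BEAF-32 and CTCF are insulator proteins with well-described binding sequences. RefSeq names the product of CG10366 an uncharacterized protein.

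The sequences under the strongest summits show the composition that recurs in the results. Each run covers 50 bp to either side of the summit in the dm6 assembly, taken from RefSeq and written 5′ to 3′ on the strand of the gene. Capitals mark runs of 6 or more A or T. These are the 8 strongest summits whose window touched no annotated exon, with 1 autosomal arm left out.
CG14100, chr3L:19590567-19590667, minus strand: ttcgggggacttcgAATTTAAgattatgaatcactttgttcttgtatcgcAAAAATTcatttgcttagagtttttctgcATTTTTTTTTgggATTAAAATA
CG18549, chr3R:12449104-12449204, plus strand: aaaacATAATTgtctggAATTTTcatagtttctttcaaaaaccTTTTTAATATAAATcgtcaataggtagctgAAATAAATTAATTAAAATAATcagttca
Rtnl1, chr2L:4997596-4997696, minus strand: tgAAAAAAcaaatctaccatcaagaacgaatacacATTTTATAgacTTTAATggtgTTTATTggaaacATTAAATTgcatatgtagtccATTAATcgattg
RluA-1, chr2L:10474489-10474589, minus strand: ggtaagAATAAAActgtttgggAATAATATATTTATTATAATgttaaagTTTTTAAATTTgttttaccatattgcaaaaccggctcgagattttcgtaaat
CG1635, chr3R:31588485-31588585, plus strand: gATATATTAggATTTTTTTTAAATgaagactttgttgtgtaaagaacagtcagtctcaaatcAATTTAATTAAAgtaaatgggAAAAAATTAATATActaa
CG13921, chr3L:1746724-1746824, plus strand: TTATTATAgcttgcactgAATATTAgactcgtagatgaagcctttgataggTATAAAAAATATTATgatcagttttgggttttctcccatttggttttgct
CG11857, chr3R:25258775-25258875, plus strand: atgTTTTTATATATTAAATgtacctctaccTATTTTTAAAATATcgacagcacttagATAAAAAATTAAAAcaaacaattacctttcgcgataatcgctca
CG31145, chr3R:23669811-23669911, minus strand: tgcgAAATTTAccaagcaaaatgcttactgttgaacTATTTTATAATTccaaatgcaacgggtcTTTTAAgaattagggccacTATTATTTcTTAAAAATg

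Between 30 and 47 of the bases in each of these windows stood in such runs. Their GC content ran from 21.8% at CG18549 and CG1635 to 31.7% at CG13921. The conditions for printing left out CG1888 (39.6%), TRAM (40.6%), Tina-1 (26.7%) and Sox14 (37.6%), which had stronger summits than CG31145.

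The next set shows the promoter and insulator elements whose frequency set these summits apart from those in head-to-head promoters. Each gene has the strongest or second strongest summit with the element inside the printed window, among summits that passed the same conditions for printing. Stronger summits with the element only further out, as at CG11857, are not among them. They were picked after their values were seen. Capitals mark the element, which is the DRE, TATCGATA, at vib and Abl, Ohler motif 7 at tin and Regnase-1, and the CTCF core, AGRKGGCGC, on either strand at dco and nxf4. A match describes these letters and is not evidence of binding by the factor.
vib, chr3R:19226669-19226769, minus strand: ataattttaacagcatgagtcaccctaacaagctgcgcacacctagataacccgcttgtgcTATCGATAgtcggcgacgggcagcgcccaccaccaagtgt
Abl, chr3L:16647920-16648020, minus strand: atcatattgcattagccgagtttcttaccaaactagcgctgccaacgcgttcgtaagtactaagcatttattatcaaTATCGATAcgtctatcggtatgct
tin, chr3R:21378731-21378831, plus strand: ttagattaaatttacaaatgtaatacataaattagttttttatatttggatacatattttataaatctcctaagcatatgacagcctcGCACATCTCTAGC
Regnase-1, chr3R:20036087-20036187, minus strand: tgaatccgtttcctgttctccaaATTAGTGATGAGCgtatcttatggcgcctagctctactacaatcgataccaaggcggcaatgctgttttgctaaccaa
dco, chr3R:31061486-31061586, minus strand: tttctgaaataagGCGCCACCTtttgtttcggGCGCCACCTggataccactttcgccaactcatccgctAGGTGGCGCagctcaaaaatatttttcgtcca
nxf4, chr3R:7346593-7346693, plus strand: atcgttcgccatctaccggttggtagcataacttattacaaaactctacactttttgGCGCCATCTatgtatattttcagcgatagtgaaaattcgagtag

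The window at dco, which encodes a casein kinase I of the circadian clock, held 3 CTCF cores. It lay 326 bp upstream of the start and had a signal of 245.

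Signal here is the authors' own value per peak, with a normalization that is not given in the sources used here, and it serves only to describe and rank peaks within a list. The summits upstream of partnerless genes had a median signal of 164 (quartiles 106 and 288, range 2.01 to 3230). The median was 142 over the whole list and 167 for the 895 upstream summits in head-to-head promoters (quartiles 112 and 287). Peaks had a median width of 330 bp in both classes. The lists hold no read totals, so depth is unknown. Brackets after a share give its 95% interval by the Wilson method, for counting error alone. Tests of shares are two-sided Fisher's exact tests over peaks, which are not replicates of the experiment.

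The weak end of the range did not consist of isolated peaks. Signals under 20 belonged to 35 summits, and each of the 35 overlapped another, separately listed peak by at least 1 bp. Among the 850 summits of 20 or more, 73 did so. The weakest were at crol (2.01), Bcat (2.47) and ph-d (2.56). Library values given below for such a summit are those of the overlapping library peak with the nearest summit, which can be the stronger neighbour.

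The strongest of the 885 summits was also the strongest peak of the series. It stood 93 bp upstream of CG14100 on 3L, in intergenic sequence, with a signal of 3230. In the separate lists its signal was 1981 in replicate 1 and 1272 in replicate 2. The gene before it is ash1, which encodes a Trithorax group histone methyltransferase, lies on the same strand and ends 249 bp from the CG14100 start. The next was 142 bp upstream of CG18549 on 3R, with a signal of 1921 (1097 in replicate 1 and 831 in replicate 2), and again the gene before it ended close by, at 250 bp.

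CG1888 (signal 1664, with 926 and 754 in the replicates) and TRAM (1458, with 860 and 605) each had the summit in the 5′ UTR of a longer transcript of the same gene, upstream of an internal start. Tina-1, which encodes troponin C-akin-1, had 1430 (831 and 613). Rtnl1, the reticulon gene whose product shapes the endoplasmic reticulum, had 1343 (785 and 571) at an internal start. RluA-1, a pseudouridine synthase gene, had 1302 (782 and 530).

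The remaining summits among the 25 strongest lay between 907 and 1280. Regulators of transcription and signalling among them were Sox14 (1269), REPTOR, whose bZIP product acts downstream of TOR (1098), Sesn, which encodes sestrin (1081), Atf3 (971), the tyrosine kinase gene Btk (919) and numb, an inhibitor of Notch (907). Genes of neurons and glia were moody, which encodes a G protein-coupled receptor of the blood-brain barrier (1144), amon, a prohormone convertase gene (1036), and msi, which encodes the RNA-binding protein Musashi (1014). Gapdh2, a glycolytic enzyme gene, had 1101, with 550 in each replicate. The others were CG1635 (1280), CG13921 (1246), CG11857 (1237), CG31145 (1230), osp (1040), CG1142 (997), MFS18 (982) and CG17726 (931). The summit given to Sesn was equally near a start of another gene.

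All 25 were in the thresholded list of each replicate. Replicate 1 values ran from 486 to 1981 with a median of 698. Those in replicate 2 ran from 349 to 1272 with a median of 484. How each list was scaled is not stated, so levels are not compared between the libraries. The 25 summits stood 69 to 265 bp from their starts, with a median of 174 bp. Of the 25, 16 lay between genes, 6 inside the same gene at an internal start and 2 inside another protein-coding gene, and 4 were on 2R. GC content was under 35% in 19 of them. It ranged from 18.8% at Btk to 51.5% at moody.

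**Figure D1:**
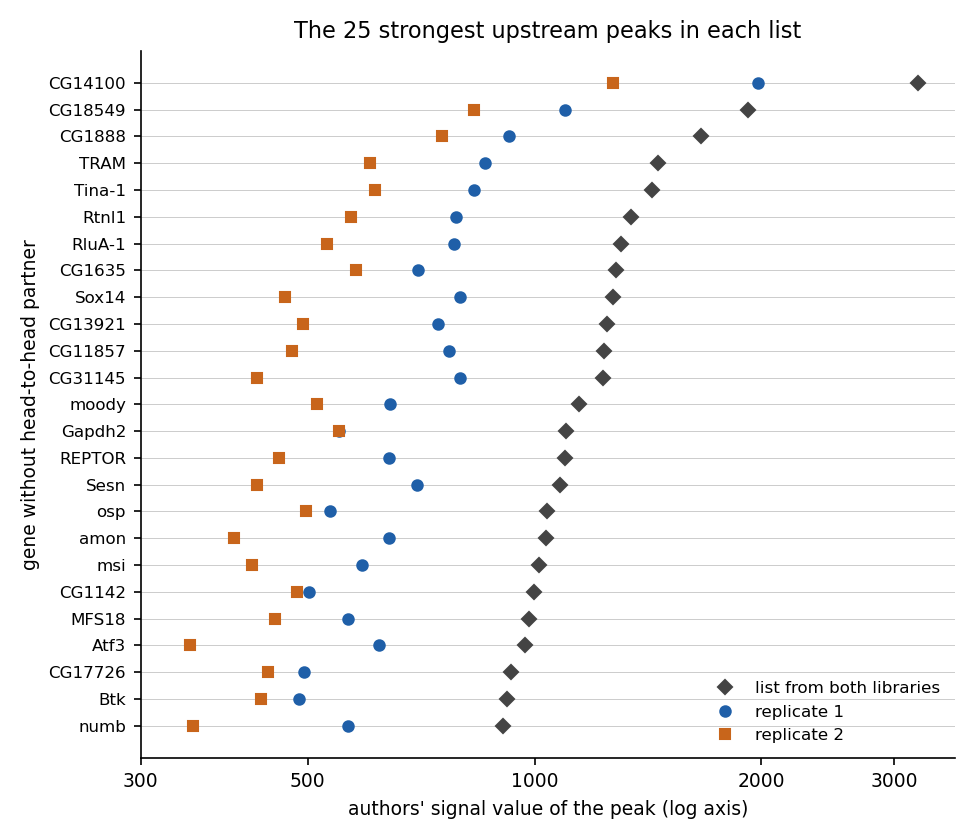
Signal of the 25 strongest summits upstream of partnerless genes, on a log axis, in the list made from both libraries (diamonds), in replicate 1 (circles) and in replicate 2 (squares). Values run from 907 to 3230 in the list from both libraries, from 486 to 1981 in replicate 1 and from 349 to 1272 in replicate 2, and each list has its own scale.

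The share of summits in both replicate lists was not detectably different from that in head-to-head promoters. Both replicate lists held 582 of the 885 (65.8%, 62.6 to 68.8%), where 57.9% of all peaks in the series-wide list were in both. In head-to-head promoters it was 594 of 895 (66.4%; log2 odds ratio -0.04 ± 0.14 SE, exact test, p = 0.802), an error that spans both directions. Replicate 1 alone held 175 summits (19.8%), replicate 2 alone held 62 (7.01%), and 66 were in neither list (7.46%). In head-to-head promoters these shares were 23.8%, 5.14% and 4.69%, and over all peaks they were 27.2%, 6.46% and 8.42%. The conservative list held 787 (88.9%), against 90.7% in head-to-head promoters and 87.8% of all peaks. None of these shares was tested. The list of replicate 2 was the shorter, with 3378 peaks against 4876 in replicate 1. In the list of replicate 2 alone the share also found in replicate 1 was lower for partnerless genes than for head-to-head promoters (85.7% of 657 against 90.5% of 650; log2 odds ratio -0.66 ± 0.25 SE, exact test, p = 0.00817).

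The share of summits in both replicate lists rose with signal, a trend that is in part built in. Signal here is that of the list made from both libraries, so the ranking is not independent of the values in each library. The trend is therefore given as a description and is no separate evidence of repeatability. All of the 100 strongest of the 885 were in both replicate lists. The share was 97.5% in the next 200, 79.0% in the 300 after those and 17.5% in the last 285. A ranked peak of replicate 1, passing or not, overlapped 852 of the 885 (median signal 95.1), and one of replicate 2 overlapped 880 (median 75.3). Across the 847 with both, the 2 signals had a Spearman's rho of 0.797, a description across peaks that share their libraries and selection. Nor was there a detectable difference at the top of the series-wide ranking. The 500 strongest peaks held 124 of the 885 (14.0%, 11.9 to 16.5%) and 133 of the 895 in head-to-head promoters (14.9%; log2 odds ratio -0.10 ± 0.19 SE, exact test, p = 0.637), where 9.7% of all peaks are in that set by definition.

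The distance from the start is given as a description, since the choice of summits used position and partners. The median position was -168 bp (quartiles -283 and -93), against -98 bp (quartiles -139.5 and -58.5). Within 100 bp of the start lay 253 of 885 (28.6%, 25.7 to 31.7%) against 470 of 895 (52.5%, 49.2 to 55.8%), and over both classes together the share was 40.6%. Head-to-head geometry limits this comparison, because a summit between 2 starts is never further from the nearer one than the middle of the gap. The median gap, taken at the closest pair of starts of the gene at each summit, was 329 bp (quartiles 236 and 482.5). The difference in the share within 100 bp kept its direction in each of 9 alternatives, among them pairs at least 600 bp apart.

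Signal was highest in the middle of the range of distances. Summits over 100 and up to 150 bp and over 150 and up to 200 bp upstream had median signals of 211 (n = 142) and 212 (n = 132). Those 1 to 50 bp upstream had 135 (n = 84), those 51 to 100 bp had 140 (n = 169), and those over 400 bp had 134 (n = 80). The distances between had 162 (n = 158 up to 300 bp and n = 120 up to 400 bp). The quartiles of every pair of neighbouring bins overlapped. At the limit of 500 bp, capu (500 bp, signal 100), bark (499 bp, 214) and l(3)neo38 (499 bp, 167) were just inside, and ush (1 bp beyond it, 116), stv (502 bp, 100.7) and ph-p (503 bp, 2492) were just outside. The limit on partners left CG11961 (partner at 1007 bp), CG9776 (1027 bp) and CG14434 (1033 bp) inside, and kept out Sarm (992 bp), Smg5 (984 bp) and Nf-YA (965 bp). CG10366 itself has a head-to-head partner, PCNA2, at 245 bp and is not among the 803 genes.

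**Figure D2:**
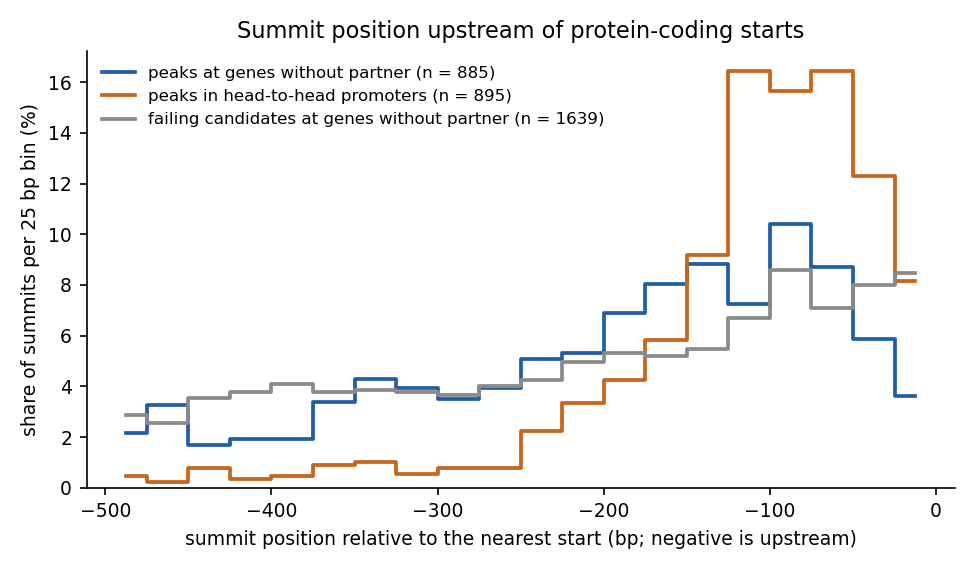
Share of summits per 25 bp bin (vertical axis, %) by position relative to the nearest start (horizontal axis, bp) for the 885 summits at partnerless genes, the 895 in head-to-head promoters and 1639 candidates at partnerless genes that failed the threshold. The median is -168 bp for the partnerless summits and -98 bp for the head-to-head ones, where the gap between the starts limits the distance.

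Most summits lay between genes. A same-strand neighbour upstream is favoured by the choice of genes, which left out near starts on the other strand, so its share is a description. Of the 885, 564 were between genes (63.7%, 60.5 to 66.8%), and in 411 of the 564 the next gene upstream was on the same strand (72.9%, 69.1 to 76.4%). That gene ended within 500 bp of the start in 185 of 411 (45.0%), at a median distance of 591 bp (quartiles 307.5 and 1583.5). Candidates that failed the threshold at the same kind of position give the setting of the uncalled sites. Of 1639, 962 were between genes (58.7%), with a same-strand upstream gene at 632 of the 962 (65.7%), ending within 500 bp at 228 of the 632 (36.1%). These shares were not tested against each other.

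A further 223 summits (25.2%, 22.4 to 28.2%) lay inside the transcribed region of the same gene, upstream of an internal start, against 25.4% of the failing candidates. They stood further out, at a median of -226 bp, with a median signal of 176. Another 74 (8.36%) were inside a different protein-coding gene, against 14.3% of failing candidates, and 24 (2.71%) were inside a non-coding gene. By feature, 564 summits were intergenic, 244 in introns, 28 in 5′ UTRs, 26 in 3′ UTRs and 20 in non-coding exons. Coding exons held 3 (0.339%, 0.115 to 0.992%), against 66 of the 1639 failing candidates (4.03%). Although none of these genes has a protein-coding partner, 44 of the summits (4.97%, 3.72 to 6.61%) had a non-coding start on the other strand within 1000 bp: 39 of ncRNA genes, 3 of tRNA genes and 2 of pseudogenes. Among failing candidates it was 44 of 1639 (2.68%, 2.01 to 3.58%).

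Most genes had a single summit. Of the 803 genes, 731 had 1 summit, 65 had 2, 4 had 3 and 3 had 4. At Rtnl1 the 4 signals were 1343, 593, 238 and 202. At dnc, which encodes the cAMP phosphodiesterase Dunce, they were 812, 384, 377 and 108. At Moe, the gene of the cortical protein Moesin, they were 371, 224, 205 and 104. Ptpmeg2 had 3 strong summits, with 870, 608 and 545, and SNF4Agamma, the gene of the AMP-activated kinase gamma subunit, had 231, 130 and 130. CG5004 had 227, 222 and 163, and CG6891 had 103, 97.7 and 7.41. All of these genes with 3 or 4 summits except Rtnl1 and SNF4Agamma are on the X.

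The X chromosome held a larger share of these summits than of those in head-to-head promoters, and a share near that of all peaks. It carried 187 of 885 (21.1%, 18.6 to 23.9%) against 108 of 895 (12.1%, 10.1 to 14.4%), a log2 odds ratio of 0.96 ± 0.19 SE (exact test, p = 2.99e-07), while 19.9% of all peaks were on the X. By number of genes, 1413 of 8930 partnerless genes (15.8%) and 783 of 5056 genes with a partner (15.5%) are on the X. Failing candidates upstream of partnerless genes were on the X in 16.2% (log2 odds ratio 0.47 ± 0.15 SE, exact test, p = 0.00229, a comparison added after seeing the data). Of the X-linked partnerless genes, 162 of 1413 had a summit (11.5%, 9.91 to 13.2%), and on the other large arms the share ran from 7.71% on 2R to 9.01% on 2L. The 187 summits lay at these 162 genes. Summits of the same gene are not independent, which the test over peaks does not allow for. Of the 5 large arms the X also had the summits furthest out, at a median of -196 bp, against -138 bp on 2R and -154 to -170 bp on 2L, 3L and 3R. Their median signal was 156, the lowest of the 5 large arms (159 to 179 on the others). Chromosome 4 had 3 summits.

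Taken over all distances, sequence at the summits was rich in A and T to about the same degree as at head-to-head promoters. GC content over the window of 50 bp to either side averaged 34.8% ± 10.2 (SD, n = 885 windows), against 34.1% ± 9.81 (SD, n = 895) in head-to-head promoters and 43.4% ± 10.8 (SD, n = 1639) at failing candidates. GC content was under 35% in 514 of 885 (58.1%, 54.8 to 61.3%) and in 59.2% of all peaks. The difference from head-to-head promoters was within its error (58.9%; log2 odds ratio -0.05 ± 0.14 SE, exact test, p = 0.737), and that from failing candidates was not (24.5%; log2 odds ratio 2.09 ± 0.13 SE, exact test, p = 2.36e-62). Composition went with signal: mean GC content was 29.9% in the 100 strongest of the 885, 32.6% in the next 200, 34.8% in the 300 after those and 37.9% in the last 285.

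The composition of the summit depended on its distance from the start. At 1 to 50 bp upstream the average was 45.2% ± 8.57 (SD, n = 84), those 51 to 100 bp upstream averaged 38.1% ± 9.92 (SD, n = 169), and those over 200 bp upstream had 32.2% ± 8.65 (SD, n = 358). Failing candidates fell less over the same distances, from 47.2% ± 8.56 (SD, n = 270) to 41.8% ± 11.1 (SD, n = 740). The gap between passing and failing windows was narrow next to the start and wider further out.

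The low in GC content extended away from the gene. In 21 bp windows, mean GC content was 34.0% at the summit, 35.4% at 100 bp on the far side and 43.8% at 100 bp on the side of the gene. The lowest value, 32.1%, lay 40 bp to the far side, and that of head-to-head promoters, 29.2%, lay 60 bp to the far side. At 500 bp it was 40.8% on the far side and 47.1% on the side of the gene. Near the summit the low of head-to-head promoters leaned the same way, with 32.5% at 100 bp on the far side and 43.1% on the side of the gene. Further out, head-to-head promoters were high on both sides, with 46.5% and 49.7% at 500 bp. Failing candidates had 43.1% at the summit, 40.7% at 500 bp on the far side and 45.1% on the side of the gene, without a low at the summit.

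**Figure D3:**
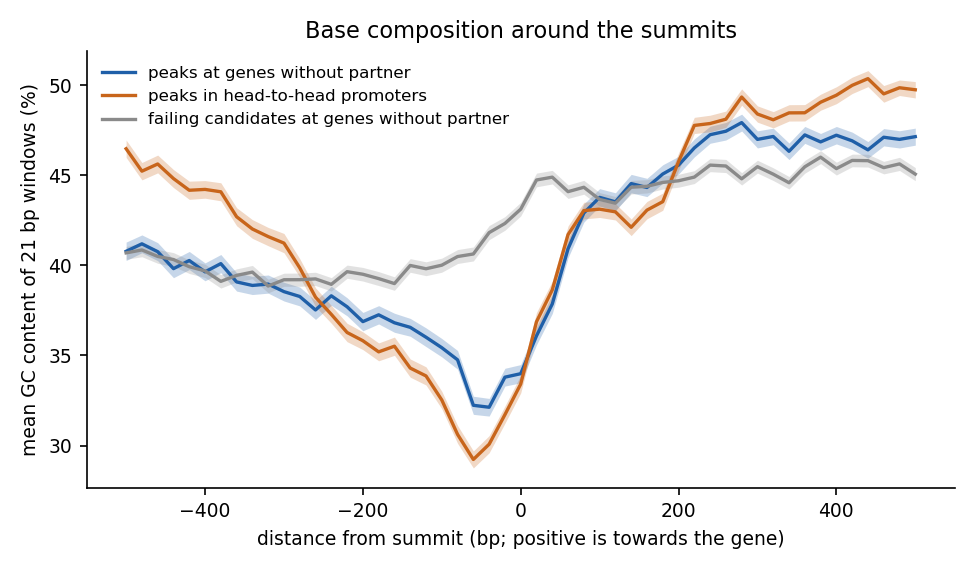
Mean GC content of 21 bp windows (vertical axis, %) by distance from the summit (horizontal axis, bp, positive towards the gene), with a band of 1 standard error over windows. Passing summits are at 34.0% (partnerless) and 33.4% (head-to-head) and lowest a little to the far side, and failing candidates at partnerless genes are at 43.1% at the summit.

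The DRE, Ohler motif 7 and the BEAF-32 box were rarer at these summits than in head-to-head promoters. Of 16 motifs searched on both strands, within 100 bp to either side of the summit, 7 passed the test after Benjamini-Hochberg adjustment over the 16 (43.8%), 5 of them rarer and 2 more frequent. The DRE, TATCGATA, which the factor DREF binds, was in 35 of 885 windows (3.95%, 2.86 to 5.45%) against 96 of 895 (10.7%, 8.86 to 12.9%), a log2 odds ratio of -1.53 ± 0.29 SE (exact test, adjusted p = 1.73e-07). For comparison, it was in 3.35% of all peaks and in 7.39% of all 13945 protein-coding promoters. Ohler motif 7 was in 65 windows (7.34%) against 151 (16.9%; log2 odds ratio -1.35 ± 0.23 SE, exact test, adjusted p = 1.11e-08), with 5.88% of all peaks and 5.87% of all promoters. The BEAF-32 box, CGATA, which the DRE contains, was in 280 windows (31.6%) against 399 (44.6%; log2 odds ratio -0.80 ± 0.14 SE, exact test, adjusted p = 1.55e-07), with 27.5% of all peaks and 38.4% of all promoters. The shares at partnerless genes were thus nearer to those of all peaks than the shares in head-to-head promoters were. These 3 motifs passed in each of the 12 alternatives run. The other housekeeping elements did not pass: Ohler motif 1 was in 2.26% against 2.12% (log2 odds ratio 0.09 ± 0.46 SE, exact test, adjusted p = 0.931). Ohler motif 6 was in 0.678% against 1.56% (log2 odds ratio -1.15 ± 0.68 SE, exact test, adjusted p = 0.227). A window in a head-to-head promoter can cover elements of both genes, and the part of this in the difference was not tested.

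The GAGA element, GAGAG, bound by the GAGA factor, was more frequent than in head-to-head promoters, at a share near that of all peaks. It was in 210 windows (23.7%, 21.04 to 26.6%) against 160 (17.9%, 15.5 to 20.5%), a log2 odds ratio of 0.51 ± 0.17 SE (exact test, adjusted p = 0.00957), and in 22.0% of all peaks and 22.2% of all promoters. It no longer passed within 50 bp of the summit (8.14% against 7.15%, exact test, adjusted p = 0.635). The CTCF core was in 21 windows (2.37%, 1.56 to 3.60%) against 7 (0.782%, 0.379 to 1.61%), a log2 odds ratio of 1.56 ± 0.62 SE (exact test, adjusted p = 0.0235), and in 2.16% of all peaks and 0.767% of all promoters. It passed in 7 of 12 alternatives, with adjusted p-values from 0.00111 to 0.330, and in neither replicate's list alone. The TATA box, TATAAA (33.0% against 39.0%, exact test, adjusted p = 0.0237), and the homeodomain site, TAATTA (17.2% against 21.7%, exact test, adjusted p = 0.0381), were rarer and passed in 7 and 6 of the 12. They were in 35.2% and 17.0% of all peaks.

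**Figure D4:**
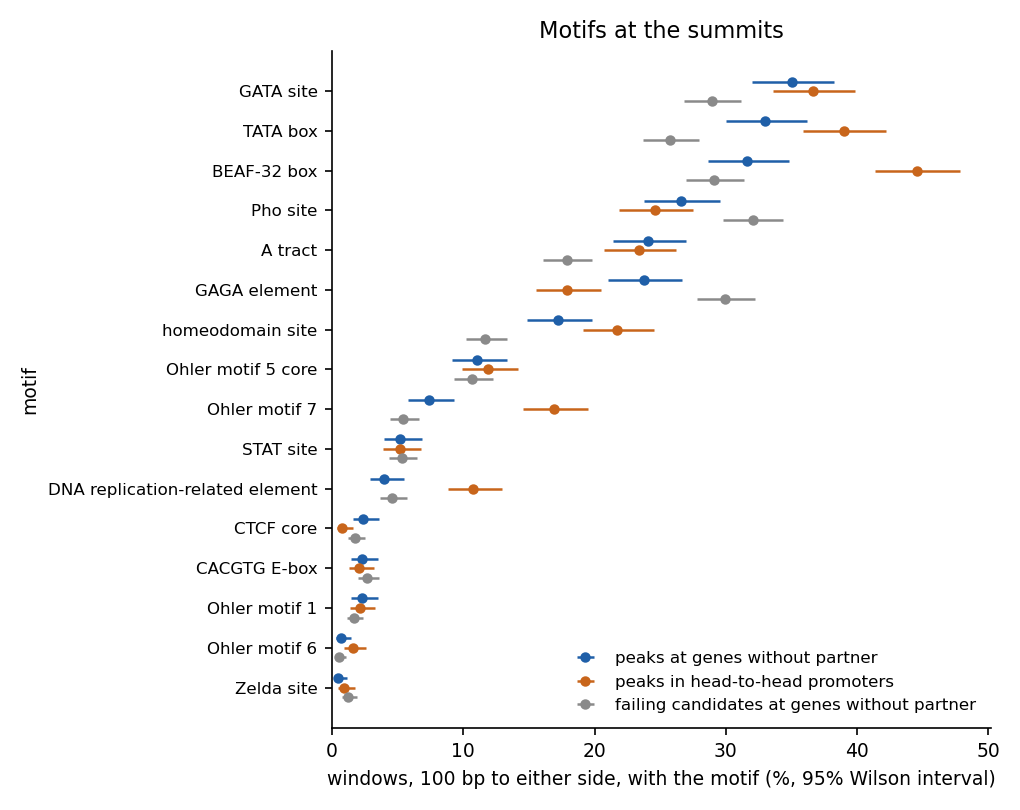
Share of summit windows, 100 bp to either side, with each of 16 motifs (horizontal axis, %, with 95% Wilson intervals) at the 885 partnerless summits, the 895 head-to-head summits and 1639 failing candidates. The DRE (3.95% against 10.7%), Ohler motif 7 (7.34% against 16.9%) and the BEAF-32 box (31.6% against 44.6%) are rarer at partnerless genes than in head-to-head promoters.

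Summits with a DRE stood closer to the start (median -71 bp, n = 35) than those without (-173 bp, n = 850), and so did those with Ohler motif 7 (-86 against -174 bp, n = 65 and 820). With the CTCF core the median was -160 bp, against -168 bp without, and with the GAGA element -173 against -164 bp. These positions and signals were not tested. Median signals were 153 with a DRE and 165 without, 149 with Ohler motif 7 and 167 without, and 182 with the GAGA element and 161 without. The 21 summits with a CTCF core had a mean GC content of 47.4%, against 34.5% for the other 864, and a median signal of 149 (quartiles 109 and 185). Of the 21, 7 had more than 1 copy. The strongest were at CG3358 (signal 278, 2 copies), dco (245, 3 copies), Obp99b, an odorant-binding protein gene (214), Myd88, the Toll pathway adaptor gene (199), and Sur-8 (198), all named after their values were seen. No summit with a CTCF core was among the 100 strongest of the 885, which begin at 491, but only 2.37% of the 885 held the core.

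Against failing candidates upstream of partnerless genes, 6 of the 16 motifs passed (37.5%). The TATA box (33.0% against 25.7%, exact test, adjusted p = 0.00124), the homeodomain site (17.2% against 11.7%, exact test, adjusted p = 0.00124), the A tract, AAAAAAA (24.1% against 17.9%, exact test, adjusted p = 0.00139) and the GATA site, WGATAR (35.03% against 28.9%, exact test, adjusted p = 0.00595) were more frequent. Rarer were GAGAG (23.7% against 29.96%, Fisher's exact test, adjusted p = 0.00374) and the Pho site, GCCAT (26.6% against 32.0%, exact test, adjusted p = 0.0112). None of the 16 passed in a Cochran-Mantel-Haenszel test stratified by GC content, so each of these calls was lost once windows of like composition were compared. None passed either in windows of the same length that end at the start.

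No 8-mer passed. The 10 with the highest odds at these summits over failing candidates on 2L and 2R, among 190 present in at least 10 windows, were tested on 3L, 3R and the X with Fisher's exact test, and 0 of 10 passed after adjustment. At an unadjusted p under 0.05 there was 1, ACTTAAAA (exact test, p = 0.0421). With the roles of the arms exchanged it was again 0 of 10 after adjustment and 1 before. That one, ACAGGGTG, was in 6 of 319 windows against 1 of 639 on the arms used for the test (exact test, p = 0.00664, adjusted p = 0.0664). Over all arms, those that chose it included, it was in 19 of 885 windows (2.15%), 6 of 895 in head-to-head promoters (0.670%), 3 of 1639 at failing candidates (0.183%) and 71 of all 5153 peaks (1.38%).

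Among the 8930 partnerless protein-coding genes, 803 had a summit upstream (8.99%), or 922 (10.3%) with peaks downstream of the start counted too. Gene lists are given as counts beside this share, without a test. Cytoplasmic ribosomal protein genes had 15 of 33 (45.5%, 29.8 to 62.0%). Among the 54 genes of this list with a head-to-head partner, 32 had a summit upstream, against 851 of all 5056 genes with a partner. The name pattern of this list left out RpL37-1, which also had a summit (signal 154, 49 bp upstream), and other genes with a hyphen in the name. RpL23A had a signal of 514 (279 in replicate 1 and 230 in replicate 2), RpS29 had 341 (172 and 169) and RpL22 had 264 (144 and 133). The median over the 15 was 214 and the lowest, RpL10, had 107. Of the 15, 12 were in both replicate lists, while RpL10 and RpS26 were in neither and had no ranked peak in replicate 1.

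The ribosomal protein summits were close to the start and less rich in A and T. They stood 3 to 120 bp upstream, 14 of 15 within 100 bp, with a median of 37 bp, where the whole set had a median of 168 bp. Their GC content averaged 47.7% and ranged from 38.6 to 61.4%, where the whole set averaged 34.8% and all summits 1 to 50 bp upstream averaged 45.2%. RpS14b follows its near-identical copy RpS14a, which ends 221 bp from its start on the same strand, so its value is uncertain where reads fit both.

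Genes for insulator and promoter-binding proteins had 4 of 9 (44.4%, 18.9 to 73.3%): row (330, with 195 and 136 in the replicates), BEAF-32 (247, with 162 and 93.7), psq (116, with 60.2 and 56.7) and pita (8.69, a weak summit beside a stronger peak). Among the 11 genes of this list with a head-to-head partner, 1 had a summit upstream. Of the 24 symbols of this list 4 matched no gene name: Mzfp1, and Pzg, Z4 and Zw5, which are other spellings or names of the matched genes pzg and dwg. General transcription and Mediator genes had 3 of 19, led by the RNA polymerase subunit gene Polr2E (612, with 249 and 360), followed by Polr2F (183) and TfIIEbeta (103). Translation factor genes had 3 of 26, led by eEF1gamma (451, with 197 and 257), followed by eIF2D (117) and eIF2A (103). Heat shock protein and chaperone genes had 3 of 18, Hsp27 (818, with 485 and 332), Hsp26 (350, with 183 and 173) and Hsp60A (134, with 75.5 and 53.7). Among the genes of these lists, pita and eIF2A were not in the list of replicate 2.

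Lists of developmental genes had shares whose intervals include the 8.99% of all partnerless genes. Segmentation genes had 3 of 22 (13.6%, 4.75 to 33.3%): nkd, an inhibitor of Wnt signalling (404, with 229 and 185), bcd, the anterior determinant (228, with 159 and 80.7), and cad (114, with 49.5 and 64.4). Mesoderm and muscle genes had 4 of 24, led by tin, the heart and mesoderm homeodomain gene (549, with 303 and 249), and sls, which encodes a titin-like protein (412, with 244 and 167), followed by rols (145) and Act87E (109). Neuronal genes had 2 of 24, elav, the gene of a neuronal RNA-binding protein (762, with 445 and 314), and scrt (77.4, with 59.1 and 28.4). The elav summit lay inside another protein-coding gene and was equally near a second start. Growth factor signalling genes had 4 of 25: aos, an inhibitor of the EGF receptor (254, with 158 and 89.3), foxo (139, with 109 and 36.0), N, which encodes Notch (131, with 73.2 and 62.3), and aop (114). Of these 4, foxo, N and aop were not in the list of replicate 2. Among the other developmental genes named, cad was not in the list of replicate 1, scrt was not in that of replicate 2 and Act87E was in neither.

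Smaller counts came from the remaining lists. Cell cycle and replication genes had 3 of 17, CycE (187, with 102 and 70.0), fzr (141) and CycD (100), all 429 to 497 bp from the start. Ecdysone-cascade nuclear receptors had 2 of 11, Eip75B (222, with 123 and 104.5) and EcR (97.9, with 45.7 and 56.8). Polycomb and Trithorax group genes had 2 of 10, kis (92.6) and ph-d (2.56), the latter a near-identical copy of ph-p. Germline and maternal genes had 1 of 8, which is bcd again. Respiratory chain genes had 2 of 42 (4.76%, 1.32 to 15.8%), ND-B17 (158, with 88.4 and 72.2) and UQCR-14 (89.3). Among the genes of these lists, CycD, EcR and ph-d were not in the list of replicate 2, and kis and UQCR-14 were not in that of replicate 1.

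Some lists had next to none. Where the count is 0, the limit given is 3 counts over the number of genes. Odorant and gustatory receptor genes had 0 of 154, which allows a share of up to 1.95% (2.43% by the Wilson method), and cuticle protein genes had 1 of 84 (1.19%, 0.210 to 6.44%), Cpr67Fb, with a weak signal of 7.14. For both, the upper limit lies under the 8.99% of all partnerless genes. Proteasome genes had 0 of 22 (up to 13.6%), mitochondrial ribosomal protein genes 0 of 15 (up to 20%), aminoacyl-tRNA synthetase genes 0 of 10 (up to 30%) and Hox genes 0 of 8 (up to 37.5%, or 32.4% by the Wilson method), counts too small to set apart from the background. Of the 73 mitochondrial ribosomal protein genes, 58 have a head-to-head partner and 11 of these had a summit upstream of a start.

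**Figure D5:**
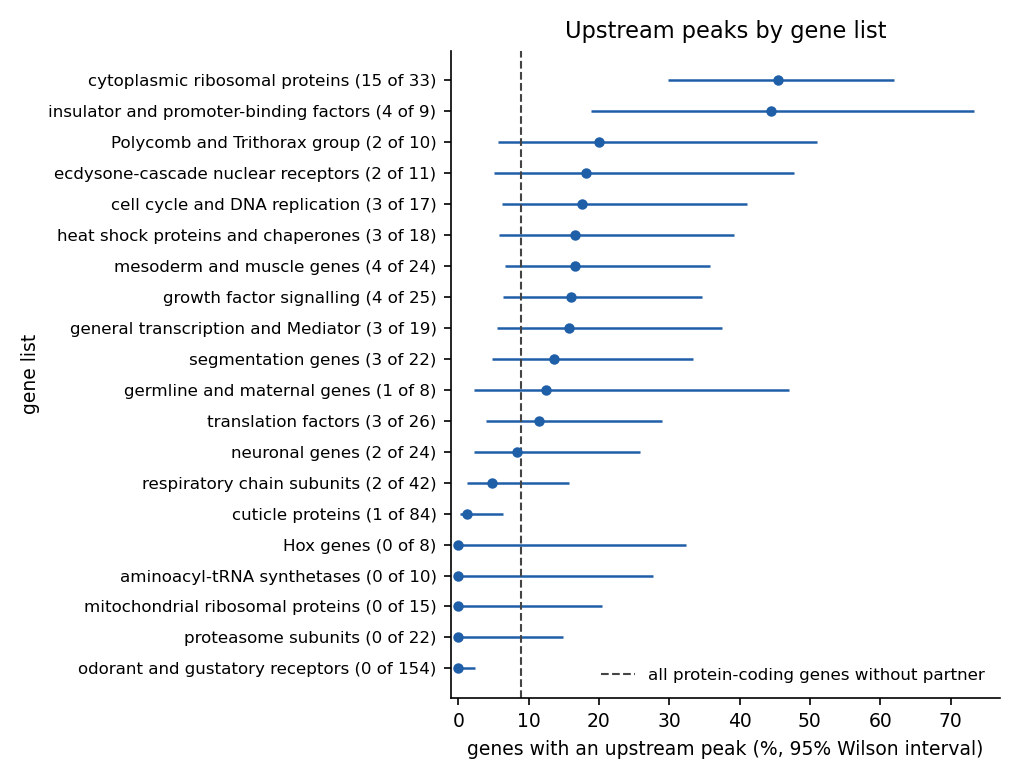
Share of the partnerless genes of each of 20 lists that have a summit upstream (horizontal axis, %, with 95% Wilson intervals), with counts beside each name. The dashed line is the 8.99% of all partnerless genes, and cytoplasmic ribosomal proteins (15 of 33) and insulator and promoter-binding factors (4 of 9) lie above it with their whole intervals.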

How the data were processed

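ChIP-seq of CG10366-eGFP was done on whole embryos in 2 libraries, which form 1 group. Per the file descriptions the authors deposited, each list comes from an irreproducible discovery rate (IDR) step on the dm6 assembly, per library or from both. The aligner and peak caller were not stated, and reads and controls were not analysed here. The authors deposited a signal, a score and a summit offset for each peak, and the −log10 of the IDR for ranked peaks, a column recognised from its values. The score was not used. Failing candidates were ranked peaks with a deposited −log10 IDR under 2, an IDR above 0.01. The files had 0 columns of other samples, and depth is unknown.

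Starts and exons came from Ensembl release 115 without transposable elements, and sequence from the RefSeq copy of dm6, whose arm lengths match. Starts of all transcripts counted, and ties went to protein-coding genes. Replicate lists were matched by an overlap of at least 1 bp. Shares were compared by two-sided Fisher's exact tests, with 0.5 added to each cell for log2 odds ratios, and the threshold was 0.05 after Benjamini-Hochberg adjustment within each set of motifs or 8-mers. Share tests were not adjusted; further ones were made under the alternatives. The tests were run on simulated data with planted motifs. Python 3.11.15, NumPy 2.4.6, SciPy 1.17.1, statsmodels 0.14.6 and matplotlib 3.10.9 were used.

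The peaks described, the gene lists, motifs and tests were chosen with earlier results of these data known. Genes named are those of the 25 strongest summits, up to 3 per list of highest signal, those next to the limits, the weakest 3 and CG10366; any others were named after their values were seen. Symbols that matched no gene, such as nos and Dl, were left out of the lists. Alternatives were the conservative list, an IDR of 0.001, windows of 250 and 1000 bp, partner limits of 500 and 2000 bp, each replicate's list alone, other motif windows and GC limits, and GC strata.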

Additional observations from a re-analysis of the deposited data

How the results depend on the processing

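No paired analysis was possible because there is 1 group and no test compares samples. The number of summits was 885 and ranged from 619 (starts within 250 bp) to 1088 (within 1000 bp), and from 657 to 832 with 1 library left out. The X difference from head-to-head promoters kept its direction and passed in each of 8 alternatives, and the low GC content against failing candidates did so in 11. The GC difference from head-to-head promoters passed with a partner limit of 500 bp (log2 odds ratio -0.29, exact test, p = 0.0434) and with GC content under 30% (-0.29, p = 0.0369), and not in the other 9. In the list of 1 replicate, the share also found in the list of the other was compared. Its log2 odds ratio was -0.66 (exact test, p = 0.00817) for the list of replicate 2 and 0.19 for that of replicate 1. With 1 library left out, the log2 odds ratios ranged from -0.12 to -0.05 for the top 500 and from -1.68 to -1.48 for summits within 100 bp. They ranged from 0.95 to 1.05 for the X. For GC content they ranged from -0.27 to 0.09 against head-to-head promoters and from 2.25 to 2.46 against failing candidates. The 7 motif calls against head-to-head promoters became 4 at an IDR of 0.001 and within 50 bp of the summit, and 4 to 6 with 1 library left out. In each case with 4, all 4 were among the 7. The 6 calls against failing candidates became 10 in the conservative list, of which 5 were among the 6. They became 3 to 6 with 1 library left out, 0 when stratified by GC content and 0 in windows ending at the start. In the last 2, the odds turned for the TATA box (-0.27 and -0.14) and the GAGA element (0.031 and 0.051), and stratified for the A tract (-0.015); the Pho site turned within 200 bp of the summit (0.0054). Of 384 values of single motifs under alternatives, 333 stayed on the same side of the threshold (in motifs without a call, in either direction), 31 lost and 14 gained a call, and 6 called values reversed. The cause was not tested. Without read totals, what depth limits is unknown. Windows ending at the start, head-to-head pairs at least 600 bp apart (for the distance from the start), the partner of the nearest start alone (1012 summits), failing candidates as the comparison for the X and summits over 100 bp from the start were chosen after seeing the data. The 1012 are the summits of both classes together whose nearest start has no partner.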
